A study of Mus musculus with 8 samples.

Results

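The expression of 10 genes that are widely used as readouts of the transcription factor p53 was compared between 4 miR-21-KD and 4 VC tumours. The genes, Cdkn1a, Ccng1, Plk2, Gadd45a, Mdm2, Phlda3, Eda2r, Trp53inp1, Zmat3 and Sesn1, were chosen from general knowledge of the pathway and are 10 of the 27179 genes in the deposited count table. All 10 passed the filter on low counts. Both groups were whole primary tumours of 4T1.13 cells, a metastatic murine mammary carcinoma line, grown in the mammary fat pad of female BALB/c mice after injection of 100000 cells. The labels place tumour recovery at day 14, when miR-21-KD tumours had begun to regress, whereas the methods of the study name an earlier day. The miR-21-KD line carried the lentiviral miArrest vector, whose transcript binds mature miR-21 and keeps it from its targets, and the VC line carried a scrambled sequence in the same vector. Cells of several clones had been pooled to make each line. The counts hold no measure of mature miR-21, so the knockdown itself could not be checked with them.

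The p53 protein binds DNA as a tetramer and switches on genes that halt the cell cycle, repair DNA, trigger apoptosis and adjust metabolism after damage or oncogenic stress. Among its targets, Mdm2 encodes the ubiquitin ligase that degrades p53 and so closes a feedback loop. The cyclin-dependent kinase inhibitor p21, encoded by Cdkn1a, leads to assembly of the DREAM complex, which lowers the expression of many cell cycle genes. 4T1 cells are known as a line without functional p53, whereas the stromal and immune cells of the host BALB/c mice carry the intact gene. A whole tumour contains all of these cells, and most p53 targets also respond to other transcription factors. In such bulk samples, fewer cells of a type and less RNA per cell cannot be told apart.

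The 8 libraries held between 12134849 and 13592695 counts, and 14382 genes were tested. A large part of the transcriptome differed between the groups. At an adjusted p below 0.05 (edgeR quasi-likelihood test, Benjamini-Hochberg adjustment over all tested genes), 39.1% of the tested genes were called. Of all tested genes, 19.6% were higher and 19.5% were lower in miR-21-KD tumours, and for 35.2% the values of the 4 and 4 tumours did not overlap. Levels are given below as TMM-scaled CPM, the counts of a gene relative to the library total, and differences as log2 fold changes of miR-21-KD over VC tumours with their standard error (SE).

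Promoter and miRNA sequences are shown first, as short stretches in which p53 consensus letters and matches to the miR-21 seed were searched. The RefSeq promoter windows used here run from 250 bases before to 50 bases after an annotated transcription start and are those of GRCm38.p6, the same build as the mm10 named for the counts. Of the 10 genes, 8 had 10 such windows between them, with a pair each for Cdkn1a and Sesn1, and Trp53inp1 and Zmat3 had none in the table. Each window was searched for the 10-base p53 consensus decamer, a palindrome that reads the same on both strands. A decamer was present in 5 of the 8 genes with a window (Cdkn1a, Ccng1, Gadd45a, Mdm2 and Sesn1), against 9.55% of the 27025 genes with a window. Decamers directly next to each other, with at most 1 mismatch over the 20 bases, occurred in 29 of all 32851 windows (0.0883%), and those of Cdkn1a and Ccng1 were among them. The following windows are shown for these genes, with Mdm2, whose window holds a single decamer, for comparison. Capitals mark each decamer and each pair of adjacent decamers.
Cdkn1a (chr17:29090729-29091028, plus strand): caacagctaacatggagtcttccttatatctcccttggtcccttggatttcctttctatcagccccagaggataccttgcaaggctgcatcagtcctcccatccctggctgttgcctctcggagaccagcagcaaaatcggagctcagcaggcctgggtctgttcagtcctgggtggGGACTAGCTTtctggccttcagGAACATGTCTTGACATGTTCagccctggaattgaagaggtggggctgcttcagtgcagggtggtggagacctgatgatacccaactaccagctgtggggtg
Ccng1 (chr11:40755237-40755536, minus strand): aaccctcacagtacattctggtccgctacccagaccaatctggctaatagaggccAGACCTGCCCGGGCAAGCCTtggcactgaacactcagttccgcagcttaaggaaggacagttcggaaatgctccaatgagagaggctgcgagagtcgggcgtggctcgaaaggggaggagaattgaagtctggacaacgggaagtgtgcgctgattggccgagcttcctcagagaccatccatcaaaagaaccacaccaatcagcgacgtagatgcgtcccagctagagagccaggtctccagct
Mdm2 (chr10:117710709-117711008, minus strand): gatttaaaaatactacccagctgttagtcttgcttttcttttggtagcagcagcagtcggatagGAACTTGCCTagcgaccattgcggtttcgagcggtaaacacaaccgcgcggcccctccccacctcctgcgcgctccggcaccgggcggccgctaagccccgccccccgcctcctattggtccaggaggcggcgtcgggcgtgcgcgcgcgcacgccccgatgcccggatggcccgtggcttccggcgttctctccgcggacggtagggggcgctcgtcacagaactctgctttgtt
The adjacent pair of Cdkn1a, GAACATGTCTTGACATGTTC, begins 51 bases before the upstream of its annotated starts, and that of Ccng1, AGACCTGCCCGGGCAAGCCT, begins 195 bases before its start. The window of the other Cdkn1a start (chr17:29093519-29093818) held no decamer. No decamer was found in the windows of Plk2, Phlda3 and Eda2r. These matches describe letters in short windows, and neither a match nor its absence shows whether p53 binds there.

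The mature sequence of the sequestered miRNA is shown with its seed, bases 2 to 8, in capitals.
mmu-miR-21a-5p (chr11:86584120-86584141, minus strand): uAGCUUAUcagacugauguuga
The 7-base complement of this seed, AUAAGCU in RNA letters, occurred in 0 of the 10 longest annotated 3′ UTRs of the p53 target genes, which were between 563 and 6692 bases long. Of the 13338 mouse genes with a 3′ UTR in this range of lengths, 9.66% held at least 1 such match.

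Of the 10 genes, 5 rose in miR-21-KD tumours and none fell by edgeR, which also held at an unadjusted edgeR p below 0.05 and for DESeq2 at an adjusted p below 0.05. Cdkn1a, Ccng1, Plk2, Phlda3 and Eda2r were higher by 1.41-fold to 3.45-fold, and in each of them every miR-21-KD tumour lay above every VC tumour. Of the 14382 tested genes, 2349 were separated in this direction, and 35.2% were separated in either direction. The 5 genes that did not pass the test were Mdm2, Zmat3, Sesn1, Trp53inp1 and Gadd45a. The median log2 fold change of the 10 genes was 0.49, against -0.01 over all tested genes, with 8 positive and 2 negative values. The share called, 50%, compares with 39.1% of all tested genes, and the share called higher, also 50%, compares with 19.6%.

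**Figure D1:**
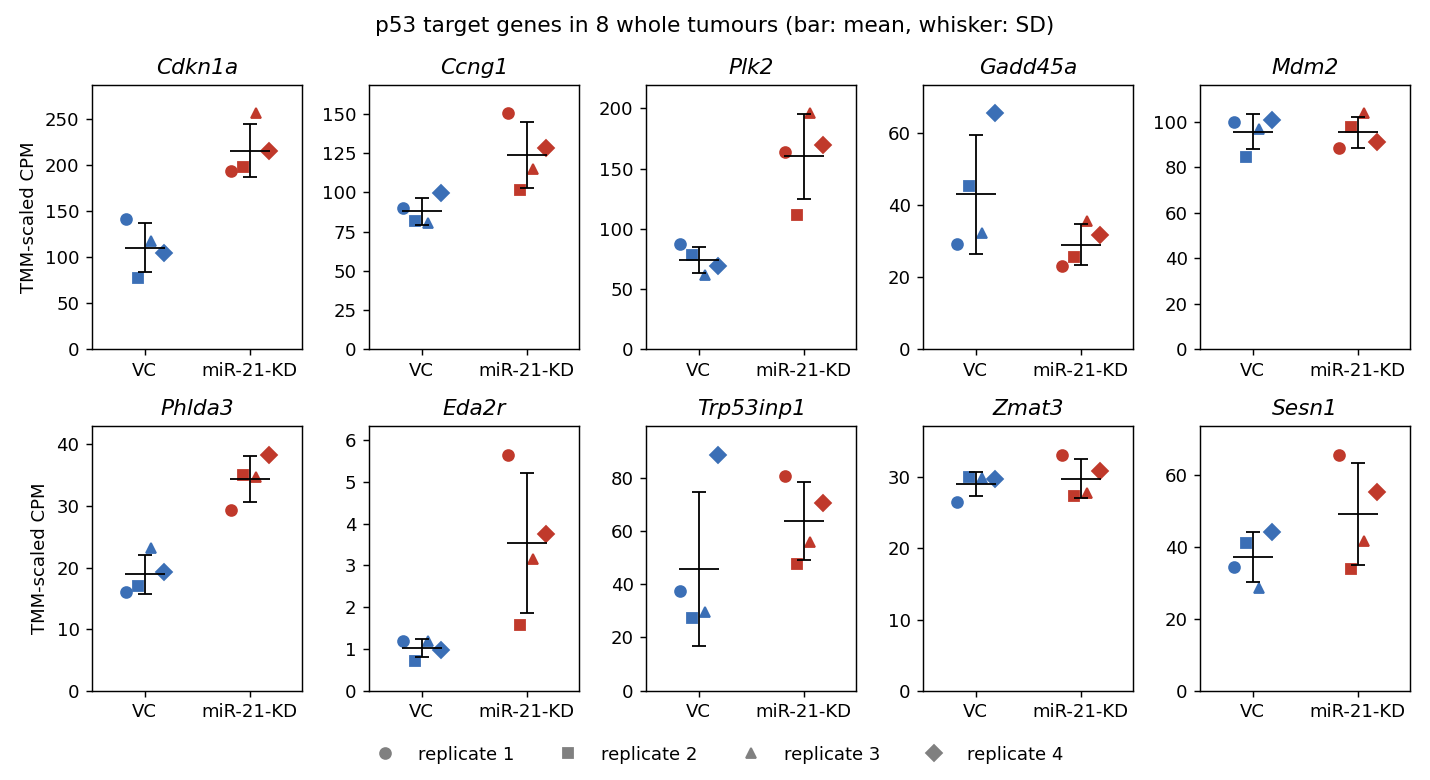
Each panel plots the TMM-scaled CPM of 1 gene (vertical axis, starting at 0) in 4 VC tumours (blue) and 4 miR-21-KD tumours (red), with the replicate number as the shape of the point, the mean as a bar and the SD as whiskers. The groups are separate for Cdkn1a, Ccng1, Plk2, Phlda3 and Eda2r and overlap for the other 5 genes, and VC replicate 4 stands apart for Trp53inp1 at 88.8 CPM.

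Of the genes that act on the cell cycle, Cdkn1a (Entrez 12575, chr17:29090979-29100722) encodes p21. Its level in VC tumours was 141, 77.9, 118 and 105 CPM in replicates 1 to 4, and in miR-21-KD tumours it was 194, 198, 256 and 215 CPM. The lowest miR-21-KD tumour was therefore above the highest VC tumour, and the group means were 110.5 ± 26.5 and 216 ± 28.6 CPM (SD, n = 4). Cdkn1a rose 1.95-fold, with a log2 fold change of 0.97 (SE 0.18, edgeR adjusted p = 0.00771).

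Plk2 (Entrez 20620, chr13:110395044-110400844) encodes a polo-like kinase of stress responses and centriole duplication. VC tumours had 87.7, 78.0, 61.8 and 69.6 CPM, and miR-21-KD tumours had 164, 112, 196 and 170 CPM. Replicate 2 was the lowest miR-21-KD tumour and still lay above all VC tumours. Plk2 rose 2.16-fold (log2 fold change 1.11, SE 0.18, edgeR adjusted p = 0.00612).

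Ccng1 (Entrez 12450, chr11:40748552-40755309) encodes cyclin G1, which recruits a phosphatase to Mdm2. It measured 89.8, 81.6, 80.5 and 99.5 CPM in VC tumours and 150, 102, 115 and 128 CPM in miR-21-KD tumours. The highest VC tumour and the lowest miR-21-KD tumour were close to each other, at 99.5 and 102 CPM. The difference was the smallest of the 5 that passed, with a log2 fold change of 0.49 (SE 0.13, edgeR adjusted p = 0.0195). It no longer passed without VC replicate 2 (log2 fold change 0.45, adjusted p = 0.0583), VC replicate 3 (0.45, adjusted p = 0.0613) or miR-21-KD replicate 4 (0.48, adjusted p = 0.0530).

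Gadd45a (Entrez 13197, chr6:67035096-67037407) encodes a small acidic protein of growth arrest and stress kinase signalling. It was the only one of the 4 cell cycle genes with a negative estimate, at a log2 fold change of -0.57 (SE 0.26, edgeR adjusted p = 0.111). VC tumours ranged widely, at 29.2, 45.2, 32.2 and 65.4 CPM, and miR-21-KD tumours were at 23.2, 25.5, 35.5 and 31.7 CPM. The groups overlapped, and without VC replicate 4 the estimate was -0.30 (edgeR adjusted p = 0.257).

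The feedback gene Mdm2 (Entrez 17246, chr10:117688875-117710758) had nearly equal means in both groups. VC tumours had 100.1, 84.6, 97.1 and 101 CPM and miR-21-KD tumours had 88.8, 97.9, 104 and 91.3 CPM. The means were 95.7 ± 7.56 and 95.4 ± 6.76 CPM (SD, n = 4). The 95% interval of the fold ran from 0.869 to 1.14 (edgeR adjusted p = 0.975), so a change of the size seen for Cdkn1a lay outside it.

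Of the genes of apoptosis and death receptors, Phlda3 (Entrez 27280, chr1:135766085-135769134) encodes a pleckstrin homology protein that restrains Akt at the membrane. It measured 16.1, 17.0, 23.2 and 19.2 CPM in VC tumours and 29.3, 35.0, 34.7 and 38.4 CPM in miR-21-KD tumours. The groups were separate and the spread within each was small. Phlda3 rose 1.82-fold (log2 fold change 0.86, SE 0.14, edgeR adjusted p = 0.00629).

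Eda2r (Entrez 245527, chrX:97333837-97377234) encodes the X-linked receptor for the A2 form of ectodysplasin, a member of the TNF receptor superfamily. Its level was low, with 9 to 70 counts in a tumour and 229 counts over all 8. VC tumours had 1.18, 0.718, 1.18 and 0.981 CPM and miR-21-KD tumours had 5.66, 1.57, 3.17 and 3.76 CPM. All miR-21-KD tumours were above all VC tumours, but they spread from 1.57 to 5.66 CPM among themselves. Eda2r had the highest fold change of the 10 genes, 3.45-fold (log2 fold change 1.79, SE 0.39, edgeR adjusted p = 0.0118), and also the widest interval of the 5 that passed, from 0.89 to 2.68 on the log2 scale. With its lowest tumour at 9 counts, it did not enter the fit that required 10 counts throughout.

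Trp53inp1 (Entrez 60599, chr4:11156441-11174379) encodes a nuclear protein of p53-dependent cell death and autophagy. VC tumours had 37.6, 27.4, 29.6 and 88.8 CPM and miR-21-KD tumours had 80.8, 47.8, 55.8 and 70.7 CPM. VC replicate 4 was above all other tumours, while the other 3 VC tumours were below all miR-21-KD tumours. With all 8 tumours the log2 fold change was 0.48 (SE 0.37, edgeR adjusted p = 0.331). Without VC replicate 4 it was 1.01 (SE 0.20, edgeR adjusted p = 0.0119). That tumour also had the highest summed level of B cell markers, 141 CPM against 1.76 to 4.94 CPM in the other VC tumours, and whether these cells contribute to its Trp53inp1 level was not tested.

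Zmat3 (Entrez 22401, chr3:32334792-32365665) encodes an RNA-binding zinc finger protein that acts on splicing. VC tumours had 26.5, 30.1, 29.9 and 29.8 CPM and miR-21-KD tumours had 33.2, 27.4, 27.8 and 30.9 CPM. The groups overlapped, and the log2 fold change was 0.04 (SE 0.10, 95% interval -0.19 to 0.26, edgeR adjusted p = 0.779).

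Sesn1 (Entrez 140742, chr10:41810574-41908436) encodes sestrin 1, which restrains mTORC1 and supports antioxidant defence. It measured 34.4, 41.2, 28.5 and 44.1 CPM in VC tumours and 65.6, 33.7, 41.6 and 55.2 CPM in miR-21-KD tumours. Replicates 1 and 4 of the miR-21-KD group were above all VC tumours and replicates 2 and 3 were not. The log2 fold change of 0.40 (SE 0.22) did not pass the test (edgeR adjusted p = 0.168). It was 0.23 without miR-21-KD replicate 1 (edgeR adjusted p = 0.408) and 0.54 without miR-21-KD replicate 2 (edgeR adjusted p = 0.0511).

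**Figure D2:**
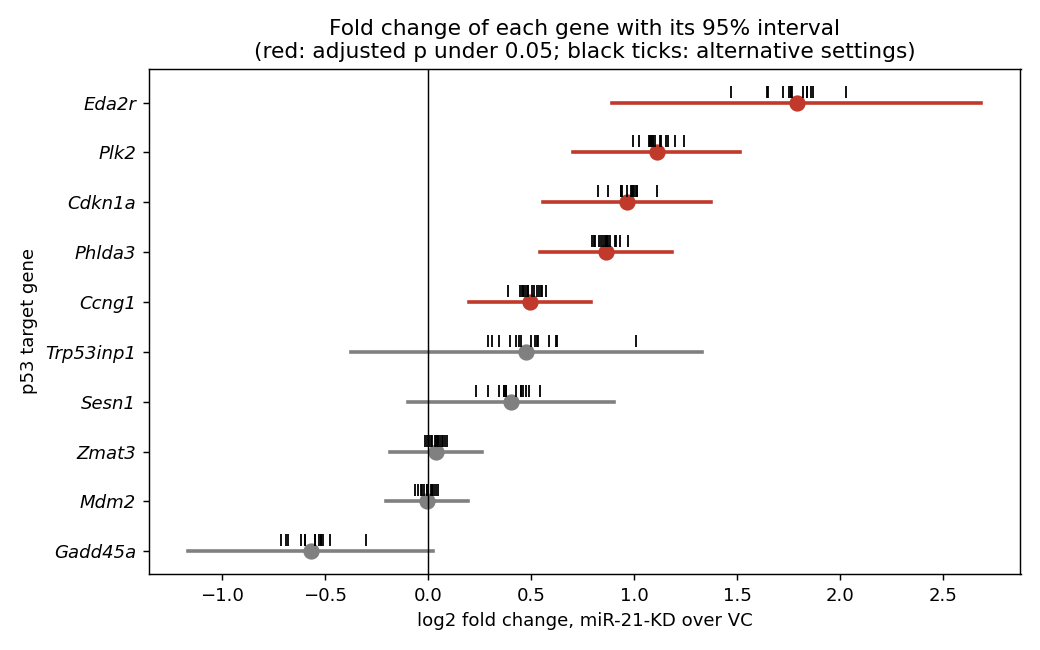
Points are log2 fold changes of miR-21-KD over VC tumours (n = 4 per group) for the 10 p53 target genes, with 95% intervals of the edgeR fit as bars, red where the adjusted p was below 0.05, and black ticks for the values under the alternative settings. The intervals of Cdkn1a, Ccng1, Plk2, Phlda3 and Eda2r lie above 0, and that of Mdm2 runs from -0.20 to 0.19.

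The position of each gene among all tested genes places these differences within the transcriptome. The log2 fold change of Eda2r lay at percentile 96.4 of all tested genes, that of Plk2 at 89.1, that of Cdkn1a at 86.8 and that of Phlda3 at 84.9. Mdm2 lay at percentile 50.8 and Zmat3 at 54.2, in the middle of the distribution, and Gadd45a lay at 13.8. Ccng1, the smallest of the rises, lay at 76.7.

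The levels of the genes can be compared with each other only per length. In CPM per kilobase of exon, Cdkn1a had the highest level in both groups, 31.1 ± 7.47 in the VC group and 60.8 ± 8.04 in the miR-21-KD group (SD, n = 4). Plk2 ranked 5 of the 10 genes in VC tumours at 16.5 ± 2.48 and 2 in miR-21-KD tumours at 35.7 ± 7.85, next to Ccng1 at 35.2 ± 5.91, from which it did not differ beyond the spread. Gadd45a ranked 3 in VC tumours at 24.4 ± 9.33 and 6 in miR-21-KD tumours at 16.4 ± 3.19. Zmat3 and Eda2r had the lowest levels in both groups. Eda2r was at 0.172 ± 0.0373 and 0.601 ± 0.287.

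Within a group the genes did not all rank the tumours alike. VC replicate 4 was the highest VC tumour for 5 of the 10 genes and the lowest for none. Replicate 2 of the miR-21-KD group was the lowest for 6 genes (Ccng1, Plk2, Eda2r, Trp53inp1, Zmat3 and Sesn1) and the highest for none. Replicate 1 of that group was the highest for 5 genes and the lowest for 4 others, Cdkn1a, Gadd45a, Mdm2 and Phlda3.

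Trp53 itself (Entrez 22059) had the same level in both groups within the spread. It measured 72.7, 72.5, 67.7 and 79.0 CPM in VC tumours and 74.5, 72.6, 71.1 and 78.0 CPM in miR-21-KD tumours, with a log2 fold change of 0.02 (SE 0.07, 95% interval -0.15 to 0.19, edgeR adjusted p = 0.839). RNA of Trp53 does not report on p53 protein, which is regulated mainly by its stability. Of its relatives, Trp63, a factor of basal epithelium, was between 1.06 and 6.42 CPM in VC tumours and between 1.57 and 13.3 CPM in miR-21-KD tumours. Its log2 fold change of 1.73 (SE 0.73) did not pass the test (edgeR adjusted p = 0.0878), but it did in the fit blocked on replicate number (adjusted p = 0.0314), without VC replicate 1 (log2 fold change 2.64, adjusted p = 0.0234) and without miR-21-KD replicate 2 (2.07, adjusted p = 0.0234). Trp73 was too low to be tested, at up to 2.18 CPM.

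Of the 19 family members and upstream regulators of p53, 18 were tested, and 1 rose and 4 fell (27.8% called, against 39.1% of all tested genes). Mdm4, an inhibitor that binds the p53 activation domain, rose from 22.7 ± 3.49 to 31.6 ± 4.31 CPM (log2 fold change 0.48, edgeR adjusted p = 0.0313). The checkpoint kinases Chek2 and Chek1, which phosphorylate p53 and halt the cycle after DNA damage, fell by 1.40 and 1.48 on the log2 scale (edgeR adjusted p = 0.00697 and 0.0220). Chek1 was 41.8, 59.0, 59.0 and 45.4 CPM in VC tumours and 8.08, 36.4, 15.2 and 14.1 CPM in miR-21-KD tumours, where replicate 2 stood above the other 3. Trp53bp1, an adaptor of double-strand break repair, fell from 130 ± 3.37 to 79.0 ± 13.4 CPM, and Trp53bp2, which directs p53 to apoptotic genes, fell from 78.8 ± 6.35 to 48.3 ± 5.88 CPM (edgeR adjusted p = 0.00618 and 0.00571).

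The calls of Mdm4 and Chek1 were lost when some single tumours were left out. Mdm4 no longer passed without VC replicate 2, 3 or 4 or miR-21-KD replicate 1 or 3, with adjusted p between 0.0570 and 0.0935. Chek1 no longer passed without VC replicate 2 or 3 or miR-21-KD replicate 3 or 4, with adjusted p between 0.0555 and 0.0641. The count of 5 became 3 without VC replicate 2, VC replicate 3 or miR-21-KD replicate 3. Over all tested genes the number called fell from 5626 to 3290, 2936 and 3750 in these fits. In the fit blocked on replicate number 8 regulators passed, because Trp63 and the acetyltransferases Ep300 (log2 fold change 0.29, adjusted p = 0.0640 without and 0.0224 with the block) and Crebbp (0.25, adjusted p = 0.239 and 0.0483) were then called.

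The remaining regulators did not pass. The damage kinase Atm had a log2 fold change of -0.39 with groups that did not overlap (edgeR adjusted p = 0.0522), and it passed without miR-21-KD replicate 2 (-0.48, adjusted p = 0.0271). Its relatives Atr and Prkdc were at 0.21 and 0.15, the kinase Hipk2 at 0.06, the deubiquitinase Usp7 at 0.05, the deacetylase Sirt1 at 0.06, the acetyltransferase Kat5 at -0.12 and the p53-binding Ppp1r13b at 0.09. Their edgeR adjusted p-values lay between 0.143 and 0.847. Cdkn2a, the locus of the Mdm2 inhibitor ARF, was at 0 to 1.88 CPM in all tumours (log2 fold change 1.21, adjusted p = 0.310), and it passed without VC replicate 4 (2.99, adjusted p = 0.0237).

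A wider list of 44 other p53 targets, of which 43 were tested, did not move in a common direction. Of these, 11 rose and 6 fell, a share of 39.5% called against 39.1% of all tested genes, and the median log2 fold change was 0.09. The count of 17 became 11 without VC replicate 2 and 10 without VC replicate 3. By role, 4 of 12 apoptosis and death receptor genes rose and 1 fell, 2 of 6 cell cycle genes rose and 2 fell, 2 of 7 metabolic genes rose and 1 of 6 DNA repair genes fell. In the feedback on p53, 1 of 4 genes fell, and of 8 tested genes with other roles 3 rose and 1 fell. Of all tested genes, 19.6% were called higher and 19.5% lower.

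**Figure D3:**
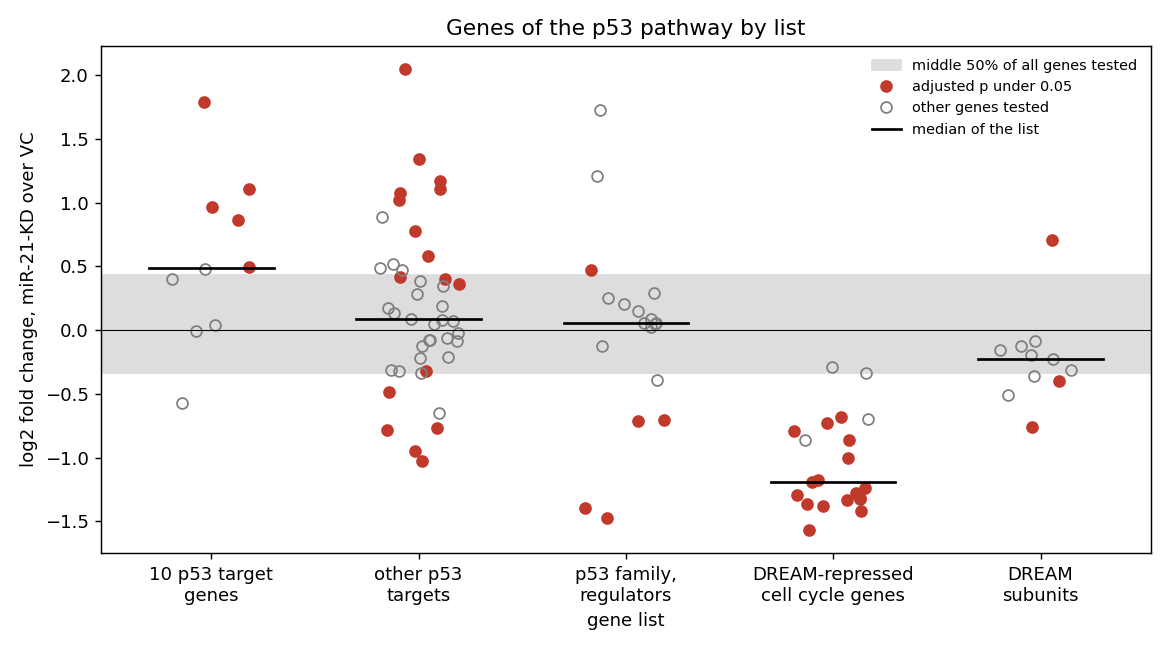
Each point is the log2 fold change (miR-21-KD over VC, n = 4 per group) of 1 gene in the 10 p53 targets, the wider p53 target list, the p53 regulators, the cell cycle genes lowered through DREAM and the DREAM subunits, with genes past the edgeR threshold marked by colour the median of each list as a bar and the middle 50% of all tested genes as a grey band. The medians are 0.49 for the 10 genes and 0.09 for the wider list, and all 21 cell cycle genes lie below 0.

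Of the genes that rose in the wider list, the death receptor gene Fas had nearly the same level in all 4 miR-21-KD tumours. It was 18.3, 10.2, 15.2 and 12.8 CPM in VC tumours and 29.1, 29.1, 27.8 and 28.6 CPM in miR-21-KD tumours (log2 fold change 1.02, SE 0.17, edgeR adjusted p = 0.00632). Sfn, encoding the cell cycle inhibitor 14-3-3σ of epithelial cells, rose from 2.63 ± 0.649 to 10.9 ± 4.82 CPM (log2 fold change 2.05, adjusted p = 0.00870), with replicate 2 the lowest miR-21-KD tumour at 4.01 CPM. The phospholipid transfer protein gene Pltp rose from 99.2 ± 13.5 to 224 ± 77.4 CPM and the autophagy gene Dram1 from 53.2 ± 16.2 to 112 ± 25.7 CPM. The small GTPase gene Rap2b rose from 63.5 ± 4.89 to 84.1 ± 7.31 CPM (edgeR adjusted p for these 3 genes between 0.0105 and 0.0127). Sesn2, Dcxr, Apaf1, Btg2 and Aen also rose. Without VC replicate 3 none of these 5 passed (edgeR adjusted p between 0.0545 and 0.0945). Dcxr, Apaf1, Btg2 and Aen did not pass without VC replicate 2 (between 0.0506 and 0.0970) and Dcxr, Btg2 and Aen without miR-21-KD replicate 4 (between 0.0555 and 0.0705). Btg2 and Aen did not pass without miR-21-KD replicate 1 (0.0593 and 0.0526), nor Aen without VC replicate 1 or miR-21-KD replicate 2 or 3 (between 0.0535 and 0.0683).

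Of the genes that fell, Polh, encoding the translesion polymerase eta, went from 24.3 ± 2.12 to 14.1 ± 1.86 CPM (log2 fold change -0.78, edgeR adjusted p = 0.00601). Ei24, an endoplasmic reticulum protein of apoptosis and autophagy, fell from 194 ± 19.6 to 114 ± 18.1 CPM, and the adenylate kinase gene Ak1 fell from 49.5 ± 3.74 to 35.4 ± 0.861 CPM. Gtse1 and Psrc1 encode proteins of microtubules and the mitotic spindle. They fell by 1.02 and 0.95 on the log2 scale (edgeR adjusted p = 0.0151 and 0.00635). Rchy1, a ubiquitin ligase for p53, was the other gene that fell (log2 fold change -0.32, edgeR adjusted p = 0.0391). It no longer passed without VC replicate 1, 2 or 3 or miR-21-KD replicate 1, 3 or 4, with adjusted p between 0.0612 and 0.106.

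Bax, Bbc3 and Pmaip1, which encode pro-apoptotic proteins of the Bcl-2 family, did not pass the test. Bax was 72.7 ± 6.98 CPM in the VC group and 81.9 ± 3.41 CPM in the miR-21-KD group (log2 fold change 0.17, SE 0.09, edgeR adjusted p = 0.136). Bbc3, encoding Puma, was 4.88 ± 0.982 and 5.20 ± 1.15 CPM (adjusted p = 0.771), and Pmaip1, encoding Noxa, was 13.3 ± 5.09 and 14.6 ± 1.95 CPM (adjusted p = 0.702).

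Cell cycle genes that p53 lowers through p21 and DREAM were lower in miR-21-KD tumours. Of the 21 genes in this list, 17 fell and none rose, a share of 81% called against 39.1% of all tested genes and 19.5% called lower, and the median log2 fold change was -1.19. Replicate 2 of the miR-21-KD group stood apart, as the highest tumour of its group for 20 of the 21 genes, and for 9 of them it was not below the lowest VC tumour. By phase, 13 of 14 G2/M genes and 4 of 7 G1/S genes fell, and Ccne1, Ccne2, Rrm2 and Bub1 did not pass. Bub1 passed in the fit blocked on replicate number (edgeR adjusted p = 0.0754 without and 0.0311 with the block). Without miR-21-KD replicate 2, Bub1, Rrm2 and Ccne2 passed, with log2 fold changes of -1.34, -1.39 and -0.58 (adjusted p = 0.00295, 0.00350 and 0.0324). The mitotic kinase genes Aurkb and Plk1 fell from 70.0 ± 10.2 to 28.0 ± 11.2 CPM and from 75.0 ± 13.3 to 28.1 ± 13.4 CPM (edgeR adjusted p = 0.00790 and 0.0105). The mitotic cyclin gene Ccnb2 fell from 100.02 ± 12.9 to 39.8 ± 17.05 CPM, the survivin gene Birc5 from 113 ± 12.6 to 43.6 ± 20.7 CPM and the transcription factor gene E2f1 from 58.8 ± 8.23 to 35.5 ± 6.73 CPM. For Plk1 the miR-21-KD tumours were at 16.9, 47.6, 24.8 and 23.0 CPM, against 60.2 to 87.5 CPM in VC tumours. The count of 17 became 20 without miR-21-KD replicate 2 and 11 without VC replicate 2, VC replicate 3, miR-21-KD replicate 3 or miR-21-KD replicate 4. Over all tested genes the number called went from 5626 to 6840, and to 3290, 2936, 3750 and 3366, in the same order. At an adjusted p under 0.01 (edgeR), 3 of the 21 genes passed, against 1426 of 14382 tested genes. The genes of this list follow the share of dividing cells in any tissue and are not specific to p53.

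Of the 11 DREAM subunits, 1 rose and 2 fell, a share of 27.3% called against 39.1% of all tested genes. Rbl2, the pocket protein of quiescent cells, rose from 37.5 ± 4.95 to 61.3 ± 12.5 CPM (log2 fold change 0.71, edgeR adjusted p = 0.0115). Lin9 and E2f5 fell by 0.76 and 0.40 (edgeR adjusted p = 0.0245 and 0.0428), and neither passed without VC replicate 2, VC replicate 3 or miR-21-KD replicates 1, 3 or 4 (adjusted p between 0.0540 and 0.111), nor E2f5 without VC replicate 1 (adjusted p = 0.0728). In the fit blocked on replicate number 5 subunits passed, Rbl1 and Rbbp4 included (adjusted p = 0.0280 and 0.0336). Without miR-21-KD replicate 2 the count was 8, and it was 1 without VC replicate 2, VC replicate 3 or miR-21-KD replicates 1, 3 or 4. Over all tested genes the number called was 6840 without miR-21-KD replicate 2 and between 2936 and 3837 in the latter fits.

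The levels of cell type markers differed between the groups. Summed CPM of 6 macrophage and monocyte markers was 2402 to 3638 in the VC group and 4948 to 7802 in the miR-21-KD group, and that of 5 leukocyte markers was 1004 to 1876 and 2071 to 2927. Fibroblast markers summed to 2938 to 7835 and 10265 to 22743 CPM, and adipocyte markers to 85.2 to 320 and 428 to 1124 CPM. None of these ranges overlapped, and 4 of 5 leukocyte, 6 of 6 macrophage, 4 of 5 fibroblast and 5 of 5 adipocyte markers rose, against 19.6% of all tested genes called higher. The collagen genes Col3a1, Col1a1 and Col1a2 had the highest levels in the fibroblast sum. The fibroblast marker Pdgfra went the other way, at a log2 fold change of -0.36 (edgeR adjusted p = 0.176). Mrc1 had the highest level in the macrophage sum, and Adgre1, C1qa and C1qb overlapped between the groups. T cell markers summed to 22.7 to 83.0 and 80.8 to 164 CPM, and 5 of 5 rose. Neutrophil markers (274 to 779 and 366 to 645 CPM), B cell markers (1.76 to 141 and 8.52 to 60.4 CPM) and endothelial markers (353 to 629 and 515 to 735 CPM) overlapped between the groups, and only 1 of these 14 markers, an endothelial one, passed.

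**Figure D4:**
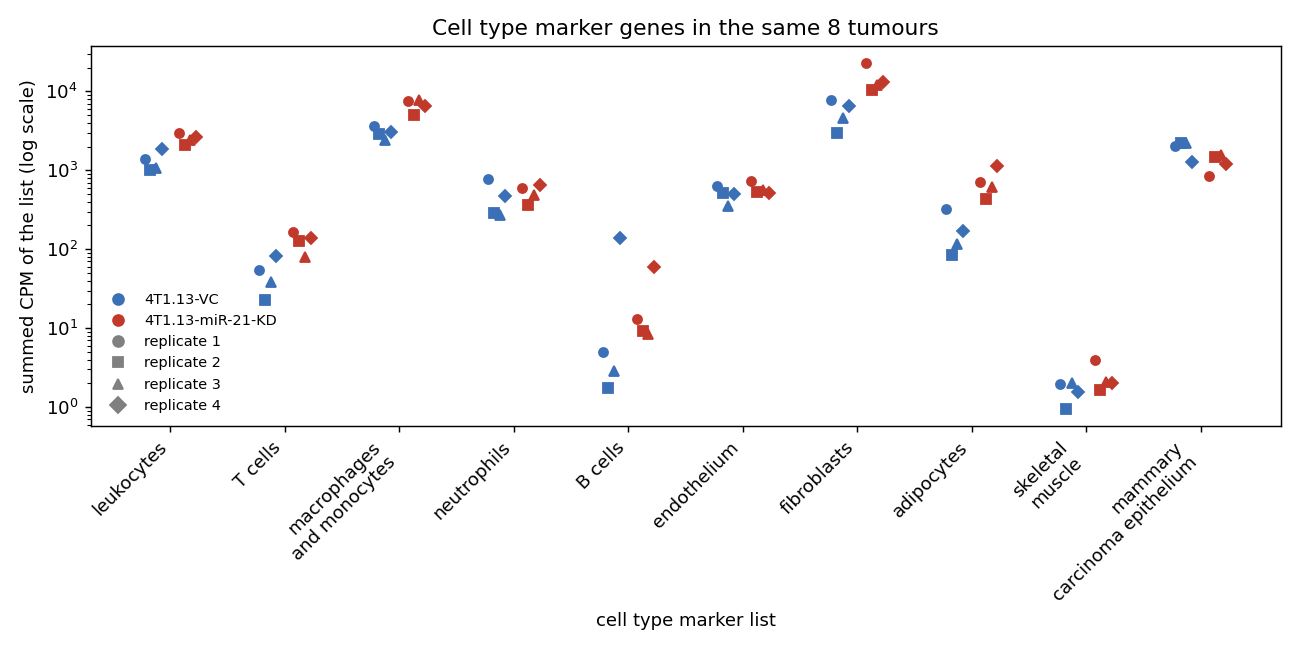
Points are the summed TMM-scaled CPM of the markers of each cell type (log axis) in the 4 VC (blue) and 4 miR-21-KD (red) tumours, with the replicate number as the shape. Leukocyte, macrophage, fibroblast and adipocyte sums are higher in every miR-21-KD tumour than in every VC tumour, and those of carcinoma epithelium overlap.

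The markers listed for mammary carcinoma epithelium summed to 1279 to 2202 CPM in the VC group and 850 to 1544 CPM in the miR-21-KD group, with none of the 6 at 0, so epithelial cells were present in both groups. By these markers, carcinoma cells cannot be told apart from epithelium of the host mammary gland. These markers moved in opposite directions. Of the keratins of luminal cells, Krt18 fell from 1022 to 460 CPM, and Krt8, at 808 and 439 CPM, did not pass the test (edgeR adjusted p = 0.0870). The other 4 of the 6 markers rose, Epcam from 25.6 to 97.6 CPM, Cdh1 from 43.2 to 124 CPM, and the basal keratins Krt14 from 7.10 to 60.4 CPM and Krt5 from 11.6 to 87.3 CPM. The median log2 fold change of the 6 was 1.72. Replicate 2 of the miR-21-KD group stood apart from the other 3 for Krt5, at 9.04 CPM against 81.0 to 153 CPM, and lay within the VC range of 3.67 to 26.6 CPM. Its Epcam level, 40.6 CPM, was below that of VC replicate 1, 49.9 CPM. Skeletal muscle markers summed to at most 3.96 CPM. The part of macrophages, fibroblasts, adipocytes or other host cells in the higher levels of Cdkn1a, Ccng1, Plk2, Phlda3 and Eda2r was not tested, and in whole tumours it cannot be told apart from a change within the carcinoma cells.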

How the data were processed

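RNA was sequenced from 8 whole tumours, 4 per group, grouped by the titles of the samples. The deposited values are raw counts, 1 column per tumour and 1 row per Entrez identifier, with no normalization. The submitters' processing notes name Subread, featureCounts, edgeR and limma and the build mm10. Their roles, versions and the strand setting are not given in the sources used here, so reads of overlapping or antisense genes cannot be told apart. RefSeq symbols matched 25275 of 27179 identifiers. Totals ranged from 12134849 to 13592695 counts, and a count of 0 allows up to 0.221 to 0.245 CPM (3 counts, counting error only).

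Counts were tested in R 4.3.3 with edgeR 4.0.16 (filterByExpr with minimum count 10 and minimum total 15, TMM, robust quasi-likelihood test, group as the only term). The Benjamini-Hochberg method was applied over all 14382 tested genes, with a threshold of 0.05. Fold changes are miR-21-KD over VC. SEs come from the estimate and its F statistic. The procedure was also run on simulated counts with known changes in a small part of the genes. The tumours differ in far more genes, so that run does not give the error rates here. CPM per kilobase used the union of GENCODE M21 exons. Chi-square statistics per degree of freedom within groups were 12.6 to 70.7 over 12 pairs, so no 2 tumours matched within sampling noise. P-values set the difference between the groups against the spread between tumours of a group. All tumours of a group came from the same pooled line. A difference between the lines therefore cannot be told apart from the loss of miR-21 activity.

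The 10 genes, all gene and marker lists and the alternatives were chosen with earlier results of these data known, from general knowledge. The genes named are the 10 p53 targets, every p53 family gene and regulator, the 5 higher and 5 lower genes of smallest adjusted p in the wider target list and in the cell cycle list, and Fas, Bax, Bbc3 and Pmaip1. Other genes are named only to complete a count or as examples of markers, and were chosen after their values were seen. The results of some genes under these lists are not reported here singly.

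The labels number the tumours of each group from 1 to 4, without stating what the number means. After removal of group means, the correlations of same-numbered tumours were 0.272, 0.421, 0.175 and 0.376, and the 12 remaining combinations averaged -0.105. Removal of group means makes the remaining combinations negative on average when the same-numbered ones are positive, so that average is not separate evidence of pairing. Whether the numbers pair the tumours is not known, and the fit reported did not use them. A fit with the replicate number as a block was an alternative. The others were DESeq2 1.42.0, scaling by library size or by upper quartile, a fit of all genes with a count, one of genes with 10 or more counts in each tumour, limma-voom (limma 3.58.1), an adjusted p under 0.01 and each tumour left out in turn. A proteomics table and the authors' comparisons were not used here.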

Additional observations from a re-analysis of the deposited data

Results flagged for a closer look

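Within groups of 4 tumours, a tumour was marked when its gap to the nearest other tumour, divided by the range of the group, exceeded Dixon's 95% critical value. Of 20 groups (10 genes in VC and miR-21-KD tumours), 2 had such a tumour, and chance alone marks about 1 in 20. Trp53inp1 in VC replicate 4 was 88.8 CPM, against 27.4 to 37.6 CPM in the other VC tumours (ratio 0.833). Zmat3 in VC replicate 1 was 26.5 CPM, against 29.8 to 30.1 CPM in the other VC tumours (ratio 0.910).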

How the results depend on the processing

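The 10 genes were recomputed under 15 alternatives (14 for Eda2r), which gave 149 values. Of these, 136 kept their direction and their side of the threshold. Cdkn1a, Plk2, Phlda3 and Eda2r passed at an adjusted p below 0.05 in every refit that gave a value, with log2 fold changes without 1 tumour of 0.82 to 1.11, 1.00 to 1.24, 0.79 to 0.97 and 1.47 to 2.03. Ccng1 did not pass in 3 of the fits that left out a tumour, and Trp53inp1 passed without VC replicate 4. Mdm2, close to 0 in the fit reported, turned positive with DESeq2 (0.015), upper-quartile scaling (0.038) and with 10 counts required in each tumour (0.046), and ranged from -0.065 to 0.030 without 1 tumour. Zmat3 ranged from -0.017 to 0.070 without 1 tumour. With the replicate block, 5 of the 10 genes passed, as without it.

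With an adjusted p under 0.01, 3 of the 10 genes passed (Cdkn1a, Plk2 and Phlda3, but not Eda2r at 0.0118), against 1426 of all 14382 tested genes. The other lists had 6 of 43 wider targets, 3 of 18 regulators, 3 of 21 cell cycle genes and 0 of 11 DREAM subunits (3 at 0.05) past it. The regulators numbered 8 with DESeq2 and 8 with the replicate block, and the DREAM subunits 5 with each. The block changed no other count by more than 1.5 times and no call of the 10 genes. In the wider target list it added Ephx1 and Cop1 (adjusted p = 0.0120 and 0.0398). Without 1 tumour the counts were 4 to 6 for the 10 genes, 10 to 19 for the wider targets, 3 to 7 for the regulators, 11 to 20 for the cell cycle genes, 1 to 8 for the DREAM subunits and 2936 (without VC replicate 3) to 6840 (without miR-21-KD replicate 2) for all genes. The cause of these shifts was not tested. Of the 10 genes, Eda2r had the fewest counts, 9 to 70 in a tumour, and it gave no value when 10 counts were required throughout.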
